A study of Mus musculus with 6 samples.

Results

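The mouse orthologs at multiple sclerosis risk loci were 39 genes, chosen by name as the mouse counterparts of genes near variants associated with the disease in people. They were followed through the predicted enhancer-gene pairs of cultured oligodendrocyte precursor cells (OPCs), in which 32049 target genes were listed in at least 1 condition. Of the 39 genes, 31 were listed in at least 1 condition and 27 in both. A mouse gene stands here for a whole human locus, and no variant position was mapped, so an element below is an element of the mouse gene and not the place of a variant.

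The OPCs came from brains of pups in the first postnatal week, labelled as strain C57BL/6j and genotype Sox10-Cre/RCE in every group, a line in which Cre under Sox10 control marks the whole oligodendrocyte lineage with GFP. Per the methods, the Cre parent was of that strain and the RCE reporter parent of mixed C57BL/6 and CD1 background. Per the methods, cells were taken by sorting for GFP or with beads against CD140a, and several brains were pooled. All cells grew in proliferation medium with bFGF and PDGF-AA. Starting 24 h after passaging, the 3 Ctr-OPC libraries kept this medium, and the 3 IFN-γ-OPC libraries received it with 100 ng/mL of interferon gamma. The culture methods give 48 h of IFN-γ treatment, without naming the HiChIP libraries. Contacts were measured by HiChIP, which captures ligated chromatin contacts that carry a histone mark, here H3K27ac. The deposited predictions pool the 3 libraries of a condition in 1 table, so no value below has a replicate error, no test between the conditions was possible, and the read depth is unknown.

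The activity-by-contact (ABC) model multiplies the activity of an element, taken from its accessibility and its H3K27ac signal, by its contact with a gene's start site. The ABC score divides this product by the gene total, which is the same product summed over all elements around the gene. A score is therefore a share within 1 gene. The tables listed pairs from a score of 0.02 and genes from a promoter activity quantile of 0.4, so an unlisted gene may have missed either limit. A score above 0.05, the cut-off of the study, is called a connection here. Contact was read in bins of 5 kb, and elements of a gene in the same bin shared a contact value. Contacts are given as read, and ratios of contact use the adjusted contact, to which the model adds a pseudocount.

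Many genes near multiple sclerosis variants act in lymphocytes and myeloid cells: receptors of the interleukin and tumor necrosis factor (TNF) families, the kinases below them, and transcription factors that set lymphocyte fate. Others have roles in most cells, such as the vitamin D enzymes, MYC and regulators of membrane traffic. Interferon gamma acts through JAK kinases. GAS and ISRE are short DNA sequences known from the promoters of interferon-responsive genes, and AP-1 factors of the Fos and Jun families bind a sequence found in many enhancers.

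The label of the cells was checked against marker genes. All 8 OPC markers (Pdgfra, Cspg4, Ptprz1, Olig1, Olig2, Sox10, Nkx2-2 and Gpr17) were listed in both conditions, and 7 of the 8 had a connection in each. Of 14 microglia markers, 7 were listed in Ctr-OPCs and 9 with IFN-γ, and the only one with a connection was Csf1r, in Ctr-OPCs. The defining leukocyte and microglia genes Ptprc, Itgam and Trem2 were listed in neither. Of 10 lymphocyte markers, 3 and 5 were listed, and the only connections were those of Cd79a in IFN-γ-OPCs. Astrocyte markers were listed for 5 of 7 genes in both conditions, with connections for 3. All 5 neuronal markers were listed in both conditions, and of 4 endothelial markers 1 and 3. In these lists the only connections were 1 of Snap25 (score 0.0963) and 1 of Cldn5 (0.0609), both with IFN-γ. These listed counts are to be read against the 56.8% and 58.2% of all protein-coding genes that were listed in Ctr-OPCs and with IFN-γ, and a share near these says nothing of a cell type. A listing reads chromatin and not RNA, and the part of other cell types in the values of the orthologs was not tested.

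The elements on which the results below turn are shown first, on the plus strand of mm10, each as 200 bases placed to hold most motif matches or, without a match, at the element's centre. Capitals mark matches to the GAS letters TTCNNNGAA, the ISRE letters GAAANNGAA or the AP-1 letters TGANTCA on either strand, where N is any base; matches may overlap. The element of Tnfrsf1a had the highest score of the gene with IFN-γ, and its window (chr6:125354738-125354937) held 1 ISRE and 2 AP-1 matches. The element shared by Myc and Pvt1, in an intron of Pvt1 (chr15:62079403-62079602), held 3 AP-1 matches. The leading Rgs1 element with IFN-γ (chr1:144335091-144335290) held 1 ISRE and 2 AP-1 matches, and the leading Zfp36l1 element (chr12:79970271-79970470) held 1 ISRE match.
Tnfrsf1a intron element: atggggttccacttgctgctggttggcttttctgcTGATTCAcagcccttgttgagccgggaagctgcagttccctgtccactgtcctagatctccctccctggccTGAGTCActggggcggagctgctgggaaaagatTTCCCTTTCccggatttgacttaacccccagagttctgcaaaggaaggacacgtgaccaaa
Myc and Pvt1 element: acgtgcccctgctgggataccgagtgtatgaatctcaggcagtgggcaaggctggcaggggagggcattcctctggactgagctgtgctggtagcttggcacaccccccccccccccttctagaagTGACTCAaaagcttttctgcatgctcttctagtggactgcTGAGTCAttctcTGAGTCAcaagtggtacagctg
Rgs1 upstream element: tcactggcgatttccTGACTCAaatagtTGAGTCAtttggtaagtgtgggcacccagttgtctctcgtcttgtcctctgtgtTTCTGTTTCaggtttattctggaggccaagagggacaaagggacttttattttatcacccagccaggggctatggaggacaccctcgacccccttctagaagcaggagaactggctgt
Zfp36l1 intergenic element: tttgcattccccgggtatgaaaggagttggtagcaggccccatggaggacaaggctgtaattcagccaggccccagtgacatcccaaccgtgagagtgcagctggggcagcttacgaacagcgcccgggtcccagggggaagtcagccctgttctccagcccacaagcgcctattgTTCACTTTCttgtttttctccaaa

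Elements of genes that were already linked in Ctr-OPCs are represented by those of Rmi2 and Evi5. The leading Rmi2 element in Ctr-OPCs, in an intron of the gene (window chr16:10844215-10844414), held 2 GAS matches. The Evi5 element, also intronic (window chr5:107873902-107874101), held no match to any of the 3 motifs. A further pair of elements was chosen for display after their values were seen, because each was listed with IFN-γ alone and matched the interferon motifs. The Il12a element upstream of the gene (window chr3:68638003-68638202) held 1 GAS and 3 ISRE matches, and the Rmi2 element next to Socs1 (window chr16:10787206-10787405) held 2 ISRE matches.
Rmi2 intron element: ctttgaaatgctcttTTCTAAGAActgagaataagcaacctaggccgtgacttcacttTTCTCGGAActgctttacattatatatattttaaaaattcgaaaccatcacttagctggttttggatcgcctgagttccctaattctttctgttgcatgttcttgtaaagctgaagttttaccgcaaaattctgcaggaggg
Evi5 intron element: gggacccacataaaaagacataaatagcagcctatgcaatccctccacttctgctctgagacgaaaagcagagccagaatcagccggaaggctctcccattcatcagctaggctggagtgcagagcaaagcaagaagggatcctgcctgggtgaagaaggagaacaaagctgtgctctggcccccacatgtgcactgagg
Il12a upstream element: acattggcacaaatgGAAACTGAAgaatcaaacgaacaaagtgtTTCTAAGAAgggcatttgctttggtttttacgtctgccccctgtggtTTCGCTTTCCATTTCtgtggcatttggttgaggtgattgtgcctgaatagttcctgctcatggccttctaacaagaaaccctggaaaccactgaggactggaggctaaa
Rmi2 and Socs1 element: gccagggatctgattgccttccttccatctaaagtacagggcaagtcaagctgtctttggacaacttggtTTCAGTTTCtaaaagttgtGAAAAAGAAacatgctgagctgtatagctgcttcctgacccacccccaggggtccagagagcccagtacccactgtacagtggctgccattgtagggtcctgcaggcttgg

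The share of the orthologs' elements with AP-1 matches was near that of all elements in both conditions, as was the GAS share in Ctr-OPCs. The ISRE share was above that of all elements in Ctr-OPCs and below it with IFN-γ, and the GAS share with IFN-γ was below it. No difference was tested. In the central 500 bp of each element, the ISRE letters were found in 13 of 79 distinct elements of the orthologs in Ctr-OPCs (16.5%, against 13.7% of all 33083 listed elements) and in 12 of 87 with IFN-γ (13.8%, against 17.0% of 35906). The GAS letters were found in 11 of 79 (13.9%, against 13.9%) and in 5 of 87 (5.75%, against 15.2%). The AP-1 letters were found in 11 of 79 (13.9%, against 14.5%) and in 14 of 87 (16.1%, against 16.2%). A match describes the sequence and is not evidence of binding.

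Most orthologs were listed, and most of those were listed without IFN-γ. Of the 38 protein-coding orthologs (Pvt1 is a long noncoding RNA), 29 were listed in Ctr-OPCs (76.3%) and 27 with IFN-γ (71.1%), beside the 56.8% and 58.2% of all protein-coding genes given above. With Pvt1 these were 30 and 28 genes. Clec16a, Il22ra2 and Nfkbid were listed in Ctr-OPCs alone, and Dkkl1, a gene related to the Wnt inhibitors of the dickkopf family, in IFN-γ-OPCs alone. Each of the 4 rested on few pairs: Clec16a had 1 pair with a score of 0.0202, Dkkl1 1 pair with 0.0215 and a promoter quantile of 0.452, Nfkbid 1 pair with 0.0292, and Il22ra2 2 pairs and a promoter quantile of 0.437.

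The 8 orthologs listed in neither condition included genes best known from lymphocytes. They were the interleukin receptor chains Il7r and Il2ra, the chemokine receptor Cxcr5, the acid-sensing receptor Gpr65, the transcription factors Batf and Gfi1, the zinc finger gene Jazf1, and Galc, the lysosomal enzyme that degrades the myelin lipid galactosylceramide. Other orthologs with roles in lymphocytes, such as Bach2 and Cblb, were listed in both conditions.

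The 30 orthologs listed in Ctr-OPCs had 82 pairs with 79 elements, and the 28 in IFN-γ-OPCs had 89 pairs with 87 elements. The median number of pairs per listed ortholog was 2.5 and 3, beside 2 and 2 over all listed genes. Listed elements carried a median of 9.15% and 9.38% of the gene total of an ortholog, beside 7.51% and 7.91% over all listed genes, so most of a gene's summed input lay in elements below the listing limit or in the promoter itself. The share was widest for Rgs1, at 32.1% in Ctr-OPCs and 43.8% with IFN-γ.

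Connections were present at 9 orthologs without IFN-γ. These were Il12a, Il22ra2, Rgs1, Evi5, Myc, Pvt1, Zmiz1, Mphosph9 and Rmi2, with 12 connections in all. They were 30.0% of the orthologs listed in Ctr-OPCs, beside 34.3% of all listed target genes and 31.7% of the protein-coding ones. With IFN-γ there were 21 connections at 14 orthologs, 50% of those listed, beside 35.6% of all listed genes and 33.1% of the protein-coding ones. The direction turned with the cut-off, and the rise was smaller with another score. Above a score of 0.1 the linked orthologs numbered 3 and 0, over all deposited pairs 30 and 28, and with the power-law score, which takes contact from distance alone, 17 and 19. Over all deposited pairs, all target genes numbered 25779 and 26591. At 0.1 and with the power-law score all genes were not counted. Whether these changes of direction are particular to the orthologs was not tested.

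Of the 31 orthologs listed in either condition, 8 had more connections with IFN-γ (25.8%, beside 14.9% of the 32049 genes) and 2 had fewer (6.45%, beside 13.0%). Those with more were Tnfrsf1a, Tnfrsf14, Rgs1, Ahi1, Pvt1, Foxp1, Eomes and Zfp36l1, and those with fewer were Il22ra2 and Mphosph9. The split turned above a score of 0.1, with 0 orthologs having more and 3 fewer, and over all deposited pairs, with 10 and 12, and with the power-law score it was 7 and 4. Genes with more and fewer were not counted over all genes at these settings. Of the 12 connections in Ctr-OPCs, 7 were also connections in IFN-γ-OPCs, 3 were listed there below the cut-off, 1 had its element not listed for the gene, and 1 belonged to a gene that was not listed. Of the 21 connections in IFN-γ-OPCs, 9 were already listed below the cut-off in Ctr-OPCs and 5 had no listed element at that position for the gene. This turnover was not counted over all genes, so it is not known to be particular to the orthologs. Several scores lay close to the cut-off: Il22ra2 at 0.0504 in Ctr-OPCs and Tnfrsf14 at 0.0503 and Rgs1 at 0.0511 with IFN-γ were just above it, and Myc at 0.0487 in Ctr-OPCs and Il12a at 0.0483 with IFN-γ were just below it.

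**Figure D1:**
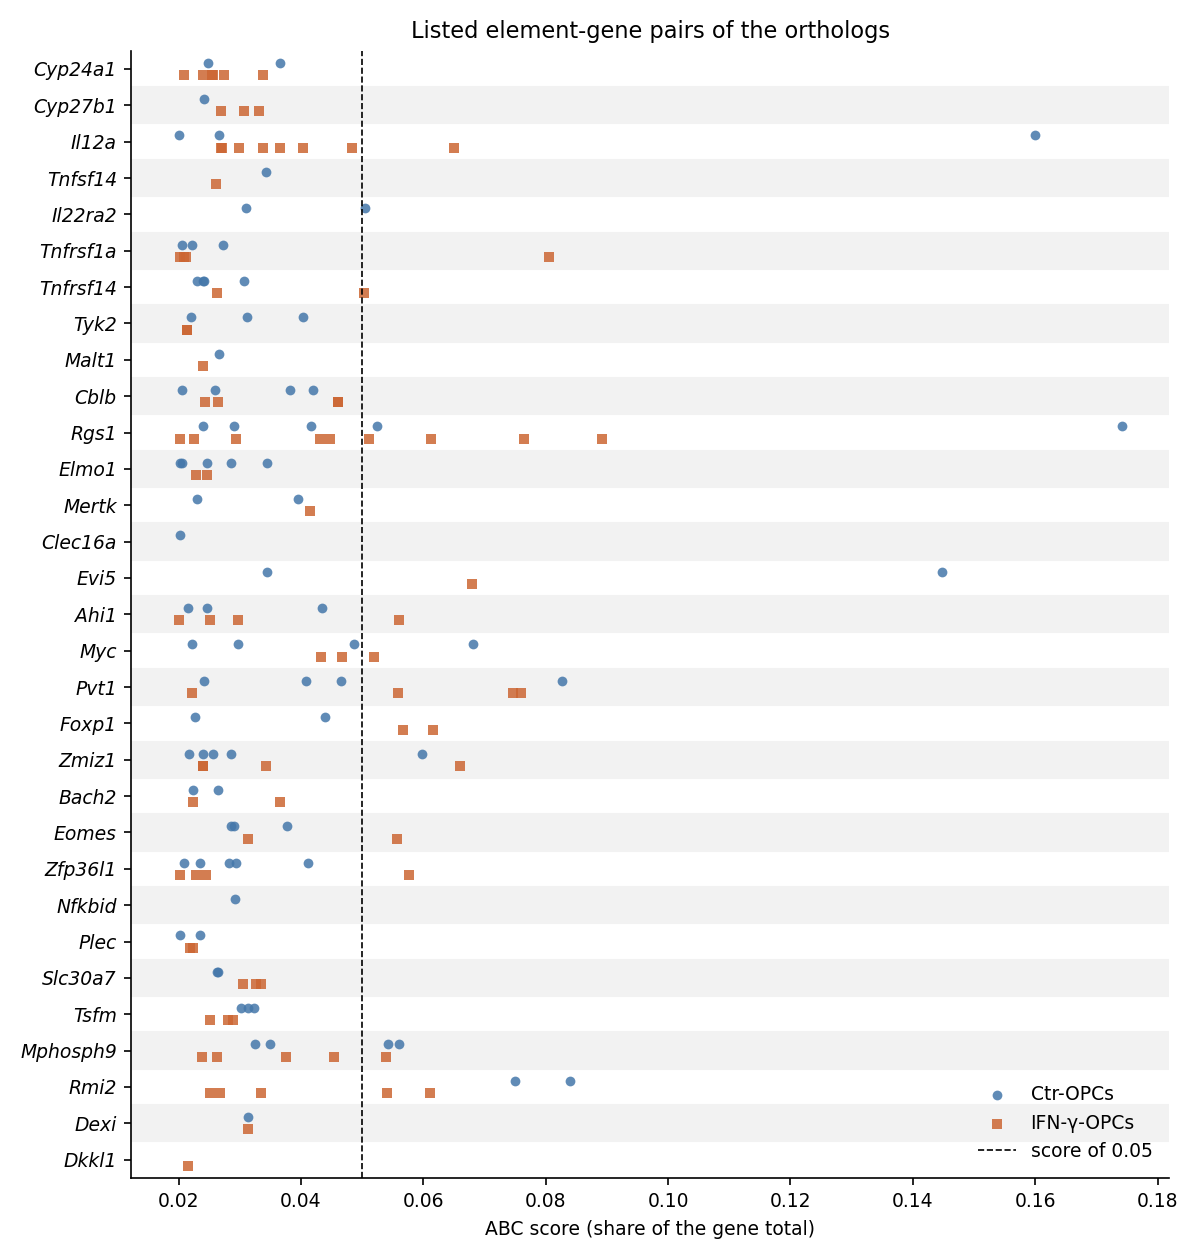
The ABC score (share of the gene total, x axis) of every listed element-gene pair of the 31 listed orthologs, with circles for Ctr-OPCs, squares for IFN-γ-OPCs and a dashed line at 0.05. The 3 highest scores, 0.174 for Rgs1, 0.160 for Il12a and 0.145 for Evi5, are all from Ctr-OPCs.

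The vitamin D enzymes had no connection in either condition but more listed pairs with IFN-γ. Cyp24a1 encodes the enzyme that inactivates the active hormone, and it had 2 pairs in Ctr-OPCs and 6 with IFN-γ. Its most active element (activity 4.20 and 3.89) was a coding exon region of Bcas1, an oligodendrocyte gene, 90.5 kb downstream, with scores of 0.0248 and 0.0254 for Cyp24a1 and of 0.0425 and 0.0536 for Bcas1. The other elements listed with IFN-γ were nearer and weaker, the closest 6.54 kb upstream with an activity of 0.672 and a score of 0.0338. Its gene total was 1.32 and 1.20.

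Cyp27b1, which makes the active hormone, had 1 pair in Ctr-OPCs and 3 with IFN-γ. The Ctr-OPC pair, with an exon region of March9 10.1 kb downstream (activity 1.12, score 0.0242), was not listed for the gene with IFN-γ. Of the 3 pairs with IFN-γ, both elements inside the gene were weak (activity 0.515 and 0.419, scores 0.0331 and 0.0269). The third, an exon region of Ctdsp2 68.0 kb upstream with an activity of 2.67 and a score of 0.0307, was also listed for Tsfm at 0.0289. An overlapping element was present in Ctr-OPCs with an activity of 3.56, but it was not listed for Cyp27b1 there. The promoter quantile of Cyp27b1 was 0.619 in Ctr-OPCs and 0.484 with IFN-γ, so the longer list did not come with a higher promoter rank. Of 6 other vitamin D genes, 3 were listed in Ctr-OPCs and 4 with IFN-γ, and Rxrb had the only connection in each. Over all genes, 56.8% and 58.2% of the protein-coding ones were listed, and 34.3% and 35.6% of the listed ones were linked.

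Among cytokines and receptors, Il12a was linked in both conditions and Tnfrsf1a in IFN-γ-OPCs alone. Il12a, the p35 subunit of interleukin-12, was linked in Ctr-OPCs to an element 2.77 kb downstream of its start (chr3:68692651-68694172, a coding exon region of the gene) with an activity of 1.46, a contact of 0.0491 and a score of 0.160. In IFN-γ-OPCs the same stretch was covered by 2 shorter elements, with activities of 0.845 and 0.628, a contact of 0.0447 and scores of 0.0650 and 0.0483. The 1522 bp element of Ctr-OPCs and the 1274 bp and 500 bp elements of IFN-γ-OPCs differ in extent, so the activities are not values of the same bases.

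The number of Il12a pairs was 3 in Ctr-OPCs and 8 with IFN-γ. Of the 8, 5 had no overlapping element anywhere in the Ctr-OPC table, among them the upstream element with the interferon motifs (52.5 kb, activity 2.17, score 0.0403), for which Il12a was the highest-scoring of 5 targets. The gene total was 0.460 in Ctr-OPCs and 0.597 with IFN-γ, 1.30-fold higher, while the promoter quantile was 0.672 and 0.402, the latter barely above the limit for a listed gene. The summed input around Il12a was thus higher with IFN-γ and its promoter rank lower. Il12b, which encodes the other subunit of interleukin-12, was listed in IFN-γ-OPCs alone, with 2 connections and a top score of 0.0862.

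Tnfrsf1a, the main receptor of TNF, had no connection in Ctr-OPCs, where its intronic element (chr6:125354532-125355484) had an activity of 1.31, a contact of 0.0183 and a score of 0.0222. With IFN-γ this element (chr6:125354588-125355087) reached an activity of 2.17, a contact of 0.0447 and a score of 0.0805. Activity was 1.65-fold and contact 2.36-fold higher. The element was 953 bp long in Ctr-OPCs and 500 bp with IFN-γ, and its midpoint lay in different contact bins in the tables. The contacts therefore belong to neighbouring 5 kb bins, and the part of this shift in the contact ratio was not tested. With IFN-γ the element was also listed for Ltbr, the lymphotoxin beta receptor next to it, at 0.0226. The leading Tnfrsf1a element in Ctr-OPCs, an exon region of Scnn1a, had scores of 0.0273 and 0.0212. The gene total of Tnfrsf1a was 1.16 and 1.24.

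Tnfrsf14, the receptor of LIGHT, had its leading element about 5 kb upstream, with scores of 0.0307 in Ctr-OPCs and 0.0503 with IFN-γ. Its activity was 0.996 and 1.16 and its contact 0.0537 and 0.0627. The gene total was 1.78 and 1.48, the lowest ratio of the orthologs (log2 -0.27). The added connection therefore came with a smaller total. Tnfsf14, which encodes LIGHT itself, had 1 pair in each condition, at different places: a coding exon region of the gene in Ctr-OPCs (score 0.0343) and an element at Ptprs 732 kb away with IFN-γ (score 0.0262). Il22ra2, a soluble inhibitor of interleukin-22, had an intergenic element 8.48 kb upstream (0.0504) and another in a coding exon region of Ifngr1, the interferon gamma receptor (0.0310), in Ctr-OPCs.

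Of 12 other genes of TNF and LIGHT signalling, 10 were listed in each condition, 5 were linked in Ctr-OPCs and 4 with IFN-γ, and Birc3, an inhibitor of apoptosis, had the most connections with 2 and 3. Of 14 cytokine receptor and JAK genes, 7 and 8 were listed and 3 and 4 were linked. Beside both lists, 56.8% and 58.2% of all protein-coding genes were listed, and 34.3% and 35.6% of all listed genes were linked. Jak1 and Jak2 encode the kinases of the interferon gamma receptor. Jak1 was listed in neither condition, and Jak2 had 2 connections in each condition, with a top score of 0.0702 in Ctr-OPCs and 0.121 with IFN-γ.

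Rgs1, which limits signalling from chemokine receptors, had different leading elements without and with IFN-γ. In Ctr-OPCs it had 5 pairs and 2 connections, led by an element in a UTR of the gene 5.74 kb downstream of the start (chr1:144243253-144243752) with an activity of 0.444, a contact of 0.0328 and a score of 0.174. The overlapping element with IFN-γ (chr1:144243406-144243905) had an activity of 0.576, but a contact of 0.00812 and a score of 0.0431. Contact had a log2 ratio of -1.87, the lowest contact ratio among the matched pairs of the orthologs, with both midpoints in the same bin. The other connection in Ctr-OPCs was to an intergenic element 374 kb downstream (activity 0.347, score 0.0525), which no element listed with IFN-γ overlapped.

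Rgs1 had 9 pairs and 4 connections with IFN-γ, all 4 to intergenic elements. They lay 86.3 kb upstream (activity 1.28, score 0.0891), 308 kb downstream (1.21, 0.0764), 94.2 kb upstream (0.5, 0.0613) and 218 kb downstream (0.398, 0.0511). The 2 upstream elements had no overlapping element in the Ctr-OPC table. The 2 downstream elements overlapped elements of that table with activities of 0.888 and 0.438 that were listed there for other genes. The downstream contacts were 2.29 and 3.47 times those expected from distance alone. In Ctr-OPCs this ratio was 4.54 for the element 374 kb downstream and 4.50 for another at 371 kb.

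The gene total of Rgs1 was small: 0.0869 in Ctr-OPCs and 0.125 with IFN-γ, with 0.497% and 0.861% of listed genes below it. Elements of low activity thus made up large shares of it. It was 1.44-fold higher with IFN-γ, the largest ratio of the orthologs, and 99.1% of genes in both tables had a lower ratio. The promoter quantile was 0.617 and 0.613.

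**Figure D2:**
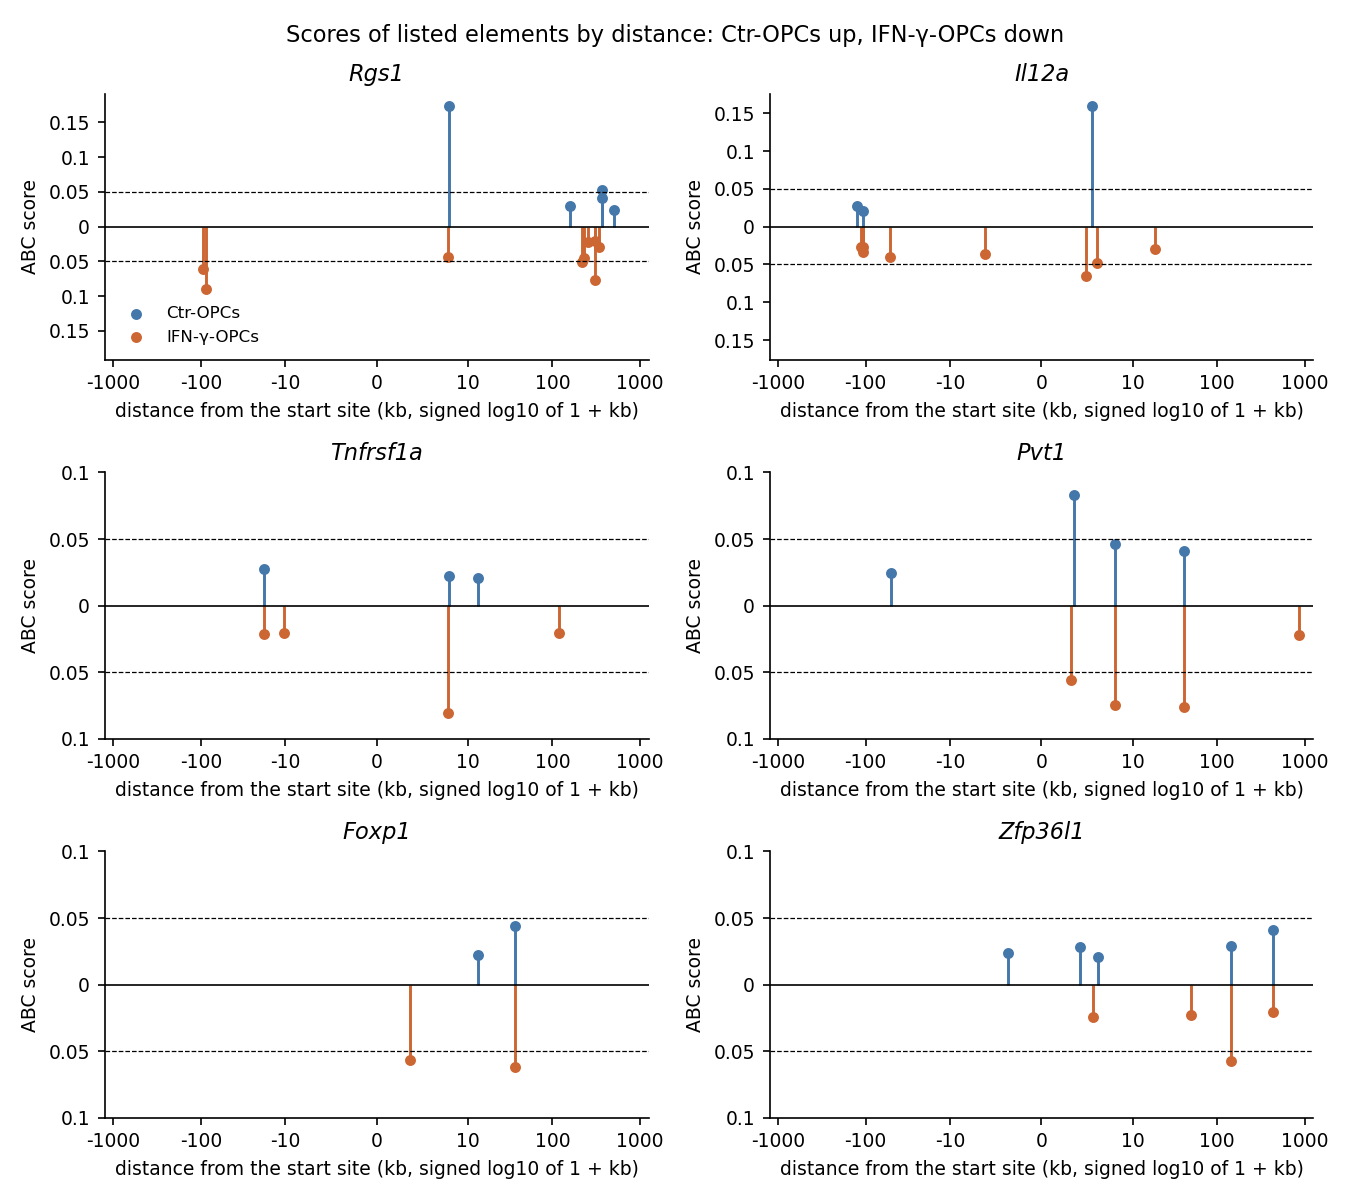
ABC scores of the listed elements of Rgs1, Il12a, Tnfrsf1a, Pvt1, Foxp1 and Zfp36l1 against distance from the start site (kb on a signed log10 axis, upstream to the left), with Ctr-OPCs above and IFN-γ-OPCs below the line and dashes at 0.05. For Rgs1 the element at 5.74 kb leads in Ctr-OPCs at 0.174, and far elements lead in IFN-γ-OPCs.

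Evi5, a regulator of membrane traffic and cell division, was linked in both conditions to an intronic element with the same coordinates (chr5:107873752-107874251), 1.11 kb from the start. It had an activity of 2.13 in Ctr-OPCs and 1.56 with IFN-γ, a contact of 0.0542 and 0.0336, and a score of 0.145 and 0.0680. Activity and contact were both lower with IFN-γ, while the gene total was nearly the same (0.814 and 0.799). In IFN-γ-OPCs the noncoding neighbour Gm43592 had a higher score for this element, at 0.0951. Ahi1, a gene of the primary cilium, had an intronic element 1.82 kb from its start with scores of 0.0435 and 0.0561, and its activity (0.907 and 1.07) and contact (0.0316 and 0.0374) were both 1.18-fold higher.

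The other genes of signalling and trafficking had no connection in either condition. Tyk2, a JAK kinase of interferon and interleukin-12 receptors, had a leading element at Cdc37 with an activity of 0.903 and 0.628 and scores of 0.0404 and 0.0214. Its gene total was 1.57 and 1.32. Mertk, a receptor for the uptake of dying cells and myelin, kept its intronic element 10.5 kb from the start almost unaltered, with activities of 1.73 and 1.74 and scores of 0.0396 and 0.0415. Cblb, an E3 ubiquitin ligase that restrains T cell activation, was listed with an element at Alcam 422 kb away (0.0383 and 0.0461) and an intergenic one 93.7 kb upstream (0.0420 and 0.0461). The upstream element's activity was 0.942 and 1.47.

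Elmo1, which acts in engulfment and migration, had 5 pairs in Ctr-OPCs and 2 with IFN-γ, with top scores of 0.0344 and 0.0246. Malt1, a protease of NF-κB signalling, had 1 pair in each condition, with an element at Zfp532 about 151 kb away whose strongest targets were other genes (0.0266 and 0.0240). Of 8 other genes of MALT1 and NF-κB signalling, 6 were listed and 3 linked in each condition, and of 4 genes of the MERTK receptor family and its ligands, all 4 were listed and 1 and 2 were linked. The shares over all genes were 56.8% and 58.2% listed, among protein-coding genes, and 34.3% and 35.6% linked, among listed genes.

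Myc and Pvt1 shared an element. Myc, a driver of proliferation, and Pvt1, the noncoding RNA next to it, were both listed with an element in an intron of Pvt1, 94.0 kb from the start of Myc and 41.4 kb from that of Pvt1. In Ctr-OPCs (chr15:62079171-62079670) its activity was 3.71, with scores of 0.0298 for Myc and 0.0408 for Pvt1. With IFN-γ (chr15:62079138-62079637) its activity was 5.55, with scores of 0.0520 and 0.0759. The element was 500 bp long in both tables, its activity 1.5-fold higher with IFN-γ, and its contact 1.24-fold higher with Myc and 1.46-fold higher with Pvt1. Its highest-scoring target was the small noncoding gene Gm27782 beside it, at 0.179 and 0.178.

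The element at the start of Myc went the other way. It lay 1.72 kb downstream, with an activity of 2.94 in Ctr-OPCs and 1.97 with IFN-γ and scores of 0.0681 and 0.0467. The single connection of Myc in each condition was therefore to a different element, near in Ctr-OPCs and distal with IFN-γ. With IFN-γ the distal score of 0.0520 and the near score of 0.0467 lay close on either side of the cut-off, so this switch rests on it. Another near element, upstream of the start, had scores of 0.0487 in Ctr-OPCs and 0.0433 with IFN-γ. The gene total of Myc was 0.755 and 0.799. Pvt1 had 1 connection in Ctr-OPCs (0.0827, 1.37 kb from its start) and 3 with IFN-γ (0.0759, 0.0747 and 0.0559). The element next to its start was 1302 bp long in Ctr-OPCs with an activity of 1.85, and 500 bp long with IFN-γ with an activity of 0.984. Pvt1 had a gene total of 0.699 and 0.822.

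Foxp1, a forkhead repressor, had no connection in Ctr-OPCs and 2 with IFN-γ. Its intronic element 37.2 kb from the start had scores of 0.0440 and 0.0615, with an activity of 2.48 and 2.92 and a contact of 0.00936 and 0.0120. The second element, 1.42 kb from the start (chr6:99520887-99521717), had an activity of 1.41 and a score of 0.0566 with IFN-γ, and no element of the Ctr-OPC table overlapped it.

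Zfp36l1, which speeds the decay of AU-rich mRNAs, had 2 distal elements that traded places. The element 143 kb downstream (chr12:79970097-79970596 with IFN-γ) had an activity of 4.71 and 4.87 and a contact of 0.00659 and 0.0118, with scores of 0.0294 and 0.0577. The element 432 kb downstream, in an intron of Rad51b, had an activity of 5.90 and 5.64 and a contact of 0.00751 and 0.00270, with scores of 0.0411 and 0.0202. At both elements the activities were close and the contacts moved in opposite directions (1.67-fold higher, and a log2 ratio of -1.15).

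Eomes, a T-box factor, had an upstream element with an activity of 0.631 and 0.860 and scores of 0.0290 and 0.0556. An element in its coding exons had an activity of 0.821 and 0.484 and scores of 0.0378 and 0.0313, so the order of the pair was reversed. Zmiz1, a coactivator, was linked in both conditions to an element 1.5 kb upstream, with an activity of 3.54 and 3.20 and scores of 0.0598 and 0.0660. It also kept 3 distal elements of high activity (3.90 to 5.71) in both tables, at scores of 0.0218 to 0.0343. Bach2, a repressor of lymphocyte effector genes, had no connection, but its intronic element 5.64 kb from the start had an activity of 1.14 in Ctr-OPCs and 2.25 with IFN-γ. This 1.98-fold ratio was the highest activity ratio among the matched elements of the orthologs, and the element's scores were 0.0224 and 0.0366. The leading Bach2 element in Ctr-OPCs, 65.1 kb from the start (activity 3.02, score 0.0264), was overlapped by no element listed with IFN-γ. Nfkbid, a nuclear inhibitor of NF-κB, was listed in Ctr-OPCs alone, with an intergenic element upstream of it. Of 14 other transcription genes examined, 12 were listed in each condition, with 7 linked in Ctr-OPCs and 4 with IFN-γ, beside 34.3% and 35.6% of all listed genes. Their connections numbered 7 and 8, with 3 genes having more and 3 fewer.

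Rmi2 and Dexi lie in 1 neighbourhood with Clec16a, Socs1 and Ciita. Rmi2, a subunit of a complex that dissolves recombination intermediates, was linked to a pair of elements in its own introns in both conditions, with scores of 0.0840 and 0.0750 in Ctr-OPCs and 0.0610 and 0.0541 with IFN-γ. The elements were 1147 and 1197 bp long in Ctr-OPCs and 500 bp with IFN-γ, with activities of 2.18 and 1.94 against 1.81 and 1.60. With IFN-γ the gene gained 3 listed elements that no element of the Ctr-OPC table overlapped. The most active of them (chr16:10787056-10787555, activity 2.62) lay 1.77 kb from the start of Socs1, a feedback inhibitor of interferon signalling, for which its score was 0.0753. Its score was 0.0804 for Prm3, a protamine gene, and 0.0252 for Rmi2. The gene total of Rmi2 was 1.15 and 1.54, 1.33-fold higher.

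Dexi had 1 pair in each condition, with nearly the same score at different elements. In Ctr-OPCs the element lay in an intron of the gene (activity 0.872, score 0.0313) and was shared with Clec16a, its neighbour and an autophagy regulator, at 0.0202. In IFN-γ-OPCs it lay 90.3 kb downstream (chr16:10452455-10452954, activity 5.94, score 0.0314). The same element had a score of 0.196 for Tvp23a and 0.0612 for Ciita, the master regulator of MHC class II genes, and the overlapping element of the Ctr-OPC table had an activity of 2.15. The gene total of Dexi was 1.104 and 1.395. Of 40 further genes examined from the orthologs' loci, 21 were listed in both tables and so had a ratio, and Ciita alone had a gene total at least 1.5-fold higher (log2 0.66), a size that 0.615% of all genes passed. Socs1 had a log2 ratio of 0.46.

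Among the remaining metabolic and structural genes, Mphosph9, a centriole protein, was linked in both conditions through an element 6.63 kb upstream with scores of 0.0542 and 0.0538. A second connection in Ctr-OPCs (0.0560) was to an element of 1329 bp with an activity of 5.05. In IFN-γ-OPCs the same stretch held 2 elements of 500 bp with activities of 1.54 and 2.17 and scores of 0.0263 and 0.0238, so the lower count of connections at Mphosph9 goes with a change in the extent of the element. Slc30a7, a zinc transporter, was listed with elements at Dph5 and Cdc14a that had 14 to 24 target genes each, at scores of 0.0263 to 0.0335. The element at Dph5 had an activity of 3.24 and 5.29, at a width of 500 and 911 bp. Plec, a cytoskeletal linker, and Tsfm, a mitochondrial elongation factor, had no score above 0.0323.

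Many elements of the orthologs were shared with other genes. In Ctr-OPCs an ortholog was the highest-scoring target of its element in 46 of 82 pairs (56.1%, against 52.2% of all pairs), and in IFN-γ-OPCs in 49 of 89 (55.1%, against 52.8%). Elements with a single target made up 28.0% and 23.6% of the orthologs' pairs, beside 29.8% and 30.3% of all pairs. The median distance of a pair was 15.3 kb without and 27.4 kb with IFN-γ, while over all genes it was 15.1 and 15.8 kb. The median of the orthologs' own median distances was 19.2 and 19.3 kb, over the orthologs listed in each condition. Connections were nearer, with median distances of 4.60 and 5.95 kb.

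The gene total was higher with IFN-γ for 16 of the 27 orthologs listed in both conditions and lower for 11. The median log2 ratio was 0.06, against -0.07 over all 20321 genes in both tables, of which 35.7% had a higher total. None of the orthologs passed a 1.5-fold change, a size that 0.615% of all genes passed upwards and 0.118% downwards. The highest ratios were those of Rgs1 (log2 0.52), Rmi2 (0.41), Il12a (0.38), Dexi (0.34) and Pvt1 (0.23), all above the 90th percentile of all genes (0.20). The lowest were those of Tnfrsf14 (-0.27) and Tyk2 (-0.25), below the 10th percentile (-0.24). The total depends on how activity and contact were scaled in each table, and with a contact taken from distance alone the median of the orthologs was below 0, at -0.07.

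**Figure D3:**
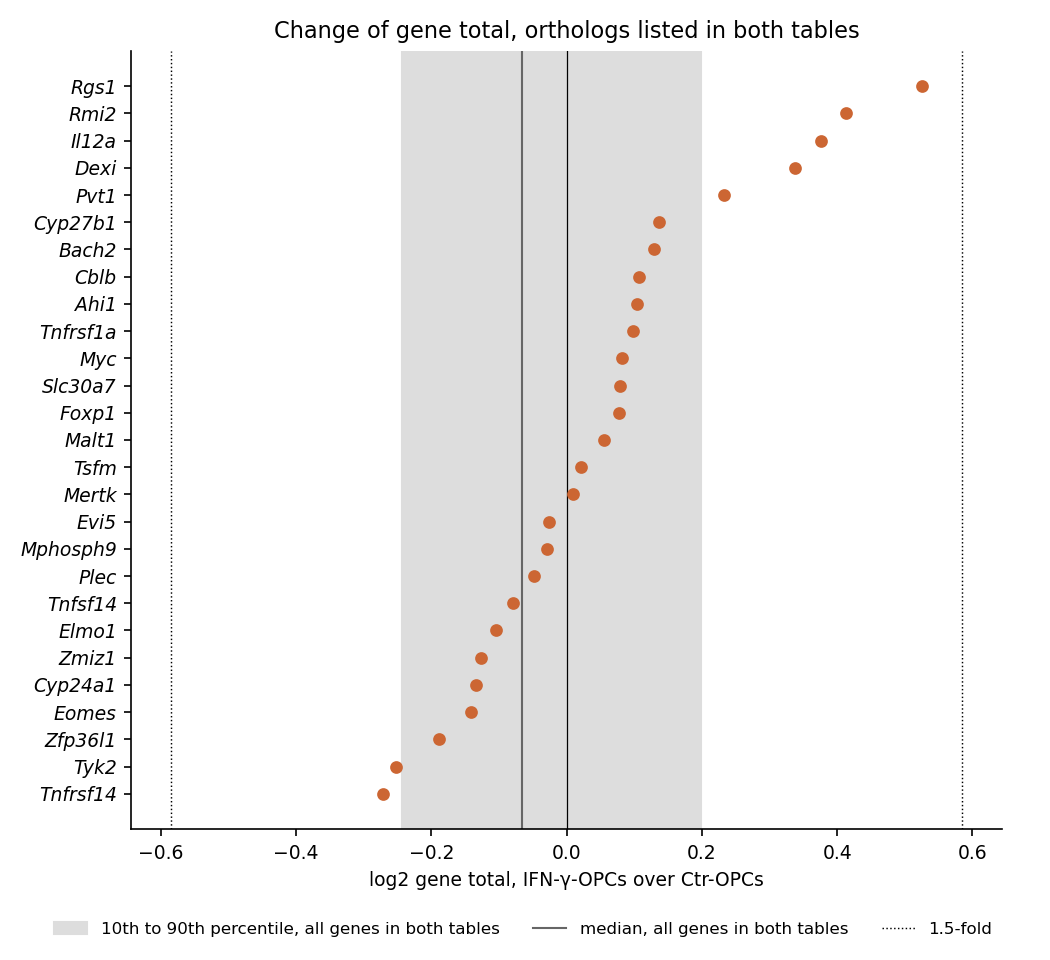
Log2 ratio of the gene total, IFN-γ-OPCs over Ctr-OPCs, for the 27 orthologs listed in both conditions (points), with the 10th to 90th percentile (band) and the median (line) of all 20321 genes in both tables and dotted lines at 1.5-fold. Rgs1, Rmi2, Il12a, Dexi and Pvt1 lie above the band, and Tnfrsf14 and Tyk2 below it.

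In 46 pairs of the orthologs the element was listed for the same gene in both conditions. Activity was higher with IFN-γ at 19 of these 45 distinct elements (42.2%, against 41.4% of 17221 elements over all genes), with a median log2 ratio of -0.11 against -0.09. Contact, with the pseudocount of the model, was higher in 32 of 46 pairs (69.6%, against 54.6% of 29858), with a median log2 ratio of 0.22 against 0.05. In the 42 pairs whose midpoints lay in the same bin in both tables, it was higher in 29, with a median of 0.22. Pairs of a gene in the same bin are not separate measurements of contact. Elements also need a score of 0.02 in both tables to be matched, so these medians leave out elements listed in 1 condition.

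**Figure D4:**
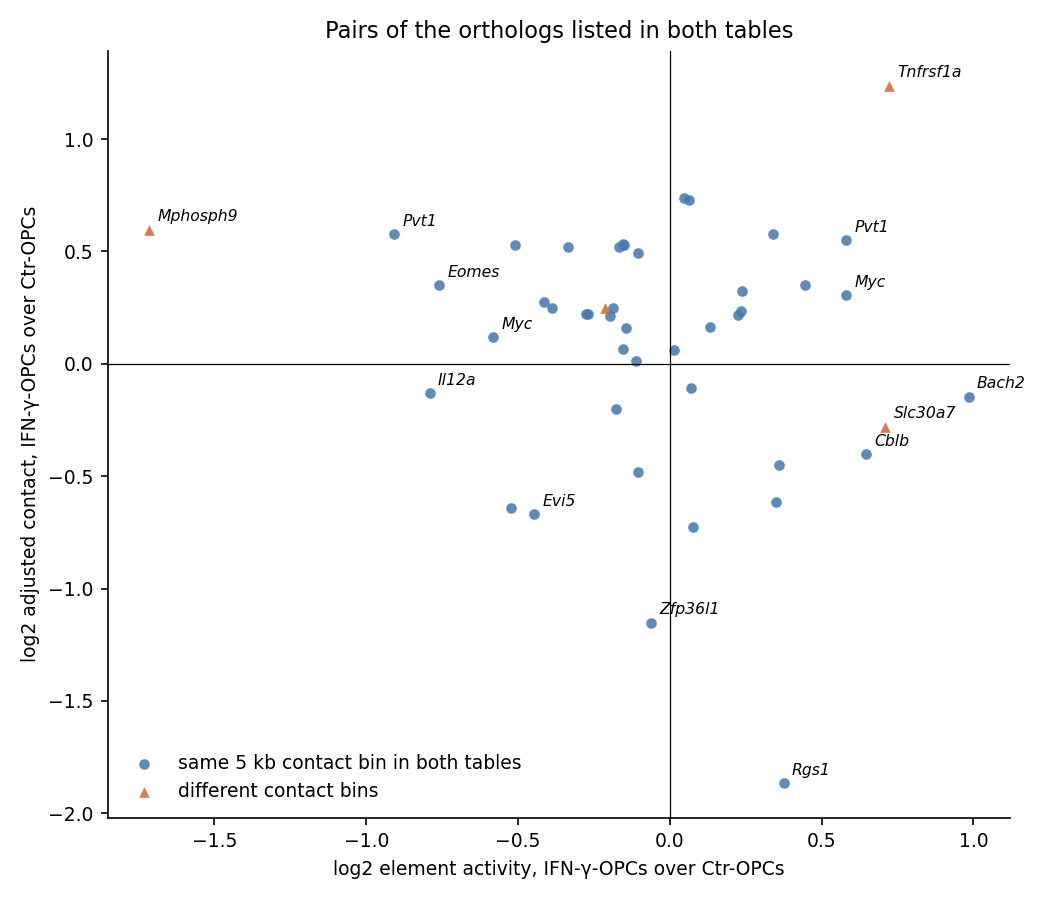
Log2 ratios (IFN-γ-OPCs over Ctr-OPCs) of element activity (x axis) and adjusted contact (y axis) for the 46 pairs of the orthologs listed in both conditions, with triangles for the 4 pairs whose elements lay in different contact bins. Tnfrsf1a is the pair with the highest contact ratio, Bach2 the one with the highest activity ratio, and Rgs1 the one with the lowest contact ratio.

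By role, connections without and with IFN-γ numbered 3 and 9 for the 11 genes of transcription and RNA control, of which 8 and 7 were listed. They numbered 3 and 6 for the 9 genes of signalling and trafficking (9 and 8 listed), 2 and 3 for the 9 cytokines and receptors (5 and 4 listed), 4 and 3 for the 8 genes of metabolism, cytoskeleton and genome upkeep (6 and 7 listed), and 0 and 0 for both vitamin D genes. Over all genes there were 11648 connections in Ctr-OPCs and 12410 with IFN-γ. Of the 63 partner genes of these pathways, 47 and 49 were listed and 23 and 20 of those were linked, beside the 34.3% and 35.6% of all listed genes, with 7 partners having more connections and 7 fewer. The median log2 gene total of the 43 partners listed in both conditions was -0.08.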

How the data were processed

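The 6 H3K27ac HiChIP libraries, 3 per condition, were aligned by the authors to mm10 with HiC-Pro and joined in the ABC model to CUT&RUN of H3K27ac and to accessibility by ATAC-seq; tool versions are not given in the sources used here. The labels assign 1 table to each condition and name 1 contact file for all libraries. In the deposited tables element activity is a signal, the contacts, the products of activity and contact and the power-law score are score values, the ABC score is a fraction, the promoter quantile is a rank from 0 to 1, and distance is in bp. Scaling between conditions is not stated. The members and gene lists were chosen with earlier results of these data known.

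Pairs were assigned through Ensembl identifiers to GENCODE M21 symbols (GRCm38), which held 31937 of 32049 target genes. The gene total was the product divided by the score, for the pair with the largest product. Elements were matched between tables by an overlap of at least 1 bp, the same gene and a mutual best match. Elements sharing a gene and a bin had 1 contact value in 100% of groups. All 39 members were accounted for; those with a connection were described with up to 4 elements per condition, and other genes were named where they shared an element or were in a list. Sequences came from the GRCm38.p6 assembly. Positions are 1-based. Alternatives to the cut-off, the score, the overlap, the pseudocount and the listing limits were tried. The calculation of gene totals and the matching of elements were checked on a copy of the Ctr-OPC pairs. In it the activities of chosen genes were doubled and the positions shifted, which checks the calculation only. Python 3.11.15, pandas 2.3.3, NumPy 2.4.6, pysam 0.24.0 and matplotlib 3.10.9 were used.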

Additional observations from a re-analysis of the deposited data

How the results depend on the processing

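No paired analysis was possible because each condition was deposited as 1 pooled table, without columns for single libraries; for the same reason no library could be left out. The number of orthologs linked without and with IFN-γ was 9 and 14 at a score above 0.05. Over all deposited pairs it was 30 and 28, with 82 and 89 pairs, and 10 orthologs had more and 12 fewer of them with IFN-γ, so the gain in linked orthologs depends on the cut-off. At a cut-off of 0.1 it was 3 and 0, with 3 and 0 connections, and 0 orthologs had more and 3 fewer. With the power-law score 17 and 19 orthologs were linked, with 27 and 30 connections, and 7 orthologs had more and 4 fewer, a smaller rise. Connections at a cut-off of 0.1 and with the power-law score were not counted over all genes. Among orthologs listed in both conditions, only 1 had fewer. An equal number of top-scoring pairs from each table kept all these counts within 1.5 times, as did a promoter quantile of 0.5 for the listed genes.

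The median log2 gene total was 0.122 relative to all genes, 0.078 for orthologs with at least 2 pairs in both tables and -0.0706 with the power-law score, the opposite sign. The median log2 activity was -0.00222 after dividing by each table's median, -0.0836 at a reciprocal overlap of 50% and for elements of 500 bp (the latter chosen after seeing the data), and 0.0585, the opposite sign, at pairs above 0.05 in either table. The median log2 contact was 0.236 without the pseudocount, 0.212 at a reciprocal overlap of 50%, and 0.236 at pairs above 0.05. The median distance was 4.6 and 5.95 kb for pairs above 0.05 and 19.2 and 19.3 kb as the median of gene medians. Causes were not tested. Without depth or replicates, no difference can be set against its error.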
